A study of Mus musculus with 7 samples.

Results

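The 10 genes described here encode the p53 family and a core set of apoptosis regulators. They were listed by name and are *Trp53*, *Trp63*, *Trp73*, *Mdm2*, *Bbc3*, *Pmaip1*, *Bax*, *Bak1*, *Bcl2* and *Bcl2l1*. All 10 had rows among the 21928 genes of the series, and 9 of them were among the 13630 genes tested. *Trp73* was too low to be tested.

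Total RNA was sequenced from whole testes enriched for preleptotene spermatocytes, the germ cells that are about to enter meiotic prophase, of 4 wild-type and 3 *Meioc*-null pups of a C57BL/6N background. *Meioc* encodes a germ cell protein needed for meiotic prophase, and the null pups carried a germline null allele, so that the loss was not limited to 1 cell type. Both groups had been synchronized in the same way, with WIN 18,446 at 0.1 mg per g of body weight daily from postnatal day (P) 2 to P8, which blocks retinoic acid synthesis, then 0.0125 mg per g of retinoic acid on P9, and were collected 6.75 days later. Each library came from 1.5 testes of 1 pup, so differences between libraries include differences between pups and in how far their germ cells had progressed. In such bulk samples, fewer cells of a type and less RNA per cell cannot be told apart.

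p53 is a transcription factor that is kept low by the ubiquitin ligase MDM2 and accumulates after DNA damage. It raises the transcription of cell cycle inhibitors and of BH3-only proteins such as PUMA and NOXA, which free the pore-forming proteins BAX and BAK1 from BCL2 and BCL-XL, so that mitochondria release cytochrome c and caspases are activated. In the juvenile testis, a wave of germ cell apoptosis that depends on *Bax* accompanies the first round of spermatogenesis, and *Trp63* is known in germ cells for a form that responds to DNA damage. Much of the control of p53 and of BAX acts on the proteins and is not visible in RNA.

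*Trp63* is transcribed from an upstream start, which gives TA forms with an N-terminal transactivation domain, and from an internal start, which gives ΔN forms without it. The first coding bases of both forms are shown because every *Trp63* read in these libraries was assigned to the internal start. They come from the GENCODE vM21 transcripts on GRCm38, and capitals mark bases that only the named form encodes. The ΔN coding sequence begins at chr16:25802060-25802062 (+) and the TA coding sequence at chr16:25684290-25684292 (+).
Trp63-205 (ΔN): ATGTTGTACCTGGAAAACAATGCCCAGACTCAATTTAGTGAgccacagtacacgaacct
Trp63-208 (TA): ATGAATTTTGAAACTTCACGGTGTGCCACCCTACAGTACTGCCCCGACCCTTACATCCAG

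The ΔN form has 41 coding bases of its own before it joins the frame shared with the TA form, which has 323. The annotated transcription starts lie 118.2 kb apart.

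p53 binds pairs of a half-site of 10 bases: 3 purines, C, 2 bases that are A or T, G and 3 pyrimidines. The half-site is its own reverse complement, so that both strands are searched at once. In the RefSeq promoter windows on GRCm38.p6, which run from 250 bases before a transcription start to 50 after it, a single half-site was found in 2745 of 32851 windows (8.36%), or 2582 of 27025 genes (9.55%). Of the 10 genes, 8 had a window in the table (*Trp63* and *Pmaip1* had none), and 3 of these 8 had a half-site. By windows this was 3 of 13 (23.1%). Since the 8 genes include known targets of p53, a high share can follow from that choice. The 3 genes with a half-site are shown because *Bax* and *Mdm2* are textbook targets of p53 and *Trp53* is p53 itself. Each line gives 60 bases on the strand of the gene, with the half-site in capitals.
Bax, chr7:45467065-45467124 (-), half-site 201 bases before the start: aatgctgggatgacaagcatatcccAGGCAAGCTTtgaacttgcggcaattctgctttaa
Mdm2, chr10:117710910-117710969 (-), half-site 186 bases before the start: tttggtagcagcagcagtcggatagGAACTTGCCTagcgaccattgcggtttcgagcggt
Trp53, chr11:69580259-69580318 (+), half-site 75 bases before the start: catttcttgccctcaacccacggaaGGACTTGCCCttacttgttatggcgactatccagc

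A match is a description of these letters and not a measured binding site. Response elements of p53 are also known outside such windows, so a window without a match says nothing about binding.

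The libraries held 12537852 to 20552702 estimated counts. Levels are given as CPM, counts scaled to the depth of each library, and a count of 3 corresponded to 0.151 to 0.237 CPM. Across the 13630 genes, 1059 were higher and 454 lower in wild type than in *Meioc*-null testes at an adjusted p below 0.05 in edgeR's quasi-likelihood test, and the higher genes made up 70.0% of these. Their share was 47.3% with scaling by library size only and 17.4% on the scale of TPM, a transcript abundance corrected for transcript length, where the median of all genes was shifted by -0.23 on the log2 scale, while the median under edgeR was -0.0065. *Meioc* itself lay between 468 and 720 CPM in wild-type libraries and between 300 and 413 CPM in null libraries, with a log2 fold change, wild type over null, of 0.76 ± 0.16 (SE). The deleted part of the gene was not checked, since counts are per transcript. Libraries of 1 group differed beyond sampling noise. The median squared difference of counts, relative to that noise, was 3.76 to 4.48 among wild-type replicates 2 to 4, 5.28 to 8.08 between these and wild-type replicate 1, and 6.80 to 11.2 among null libraries, where null replicates 1 and 2 were the farthest apart. Wild-type replicate 1 was about as near to null replicate 1 (5.38) as to wild-type replicate 2 (5.28).

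Germ cell markers differed between the groups. Of 8 spermatocyte markers, 7 were higher in wild type, with a summed level of 1907 to 2634 CPM against 896 to 1108 CPM in null libraries, and wild-type replicate 1 had the lowest wild-type sum. Of 5 general germ cell markers, 3 were higher in wild type (1664 to 1867 against 1194 to 1318 CPM, with *Dazl* the highest). *Dnd1* of that list, named after its value was seen, had the opposite sign, with a log2 fold change of -0.76 ± 0.22 (SE). It was not called (adjusted p = 0.057, edgeR). Of 6 tested markers of undifferentiated spermatogonia, 2 were lower in wild type (128 to 152 against 169 to 272 CPM). Of 9 Sertoli cell markers, 1 was lower in wild type (1364 to 1525 against 1426 to 1596 CPM). Of 5 markers of differentiating spermatogonia, 2 were higher in wild type. The Leydig and peritubular myoid cell lists had 1 call each, and the macrophage and endothelial lists 0. Spermatid markers were at or near 0, with *Prm1*, *Prm2* and *Tnp2* at 0 in all 7 libraries.

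The genes differed widely in level, and *Bax* and *Mdm2* were the highest. On the scale of TPM, the mean over the 7 libraries was 48.6 for *Bax*, 44.7 for *Mdm2*, 28.4 for *Bcl2l1* and 23.3 for *Trp53*. *Bax* was above *Mdm2* in 6 of 7 libraries, with overlapping ranges. *Bcl2l1* was above *Trp53* in all 7, although the ranges over libraries overlapped. Then came *Bak1* at 9.53 TPM, *Bbc3* at 4.70, *Pmaip1* at 3.99 and *Bcl2* at 2.52. The order of *Bbc3* and *Pmaip1* held in 5 of 7 libraries, and the range of *Pmaip1* overlapped that of *Bcl2*. *Trp63*, at 1.19 TPM, and *Trp73*, at 0.054 TPM, were the lowest, and neither range overlapped the next one. Of the protective genes, *Bcl2l1* exceeded *Bcl2* in every library, with a TPM ratio of 12.4 ± 3.46 (SD, n = 4) in wild type and 10.8 ± 1.77 (SD, n = 3) in null libraries.

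**Figure D1:**
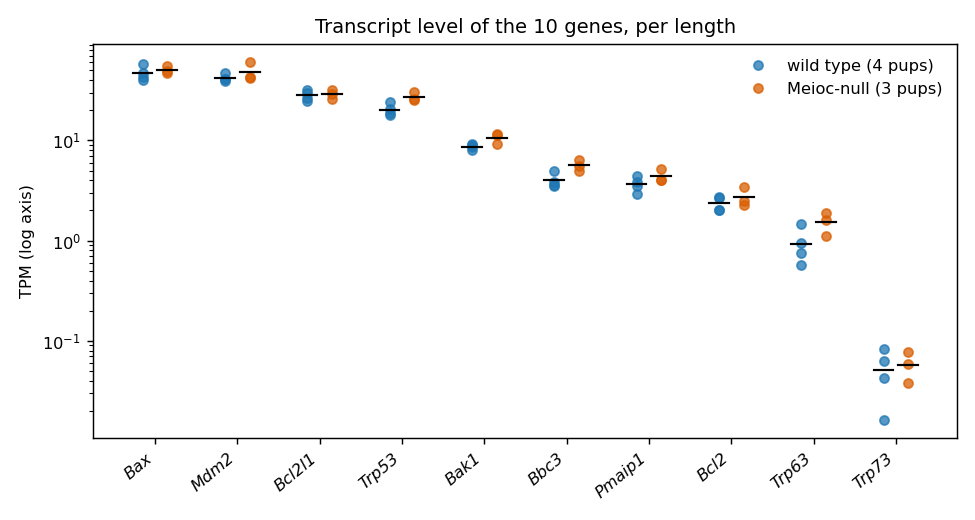
Level of each of the 10 genes in TPM (log axis) in every library, for wild type (blue) and *Meioc*-null (orange), with bars at the group means. *Bax* and *Mdm2* lie between 39.0 and 60.7 TPM, *Trp63* near 1 TPM and *Trp73* below 0.1 TPM in all libraries.

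No gene of the 10 passed the test between genotypes. Of the 9 tested, 0 were called at an adjusted p below 0.05 by edgeR, where 11.1% of all tested genes were called, and 0 by DESeq2, where 17.1% were. At an unadjusted p below 0.05 there was 1 of 9 (*Trp53*), against 30.3% of all genes. The CPM of the groups did not overlap for 2 of 9 (*Trp53* and *Bbc3*, both higher in null libraries), against 26.2% of all genes. On log2(TPM + 1) values, limma called 1 of 9 (*Trp53*), against 18.5% of all genes. The median log2 fold change of the 9 was 0.011, with 5 above and 4 below 0. Summed over the 10 genes, the level was 244 to 247 CPM in wild-type libraries and 230 to 247 CPM in null libraries.

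**Figure D2:**
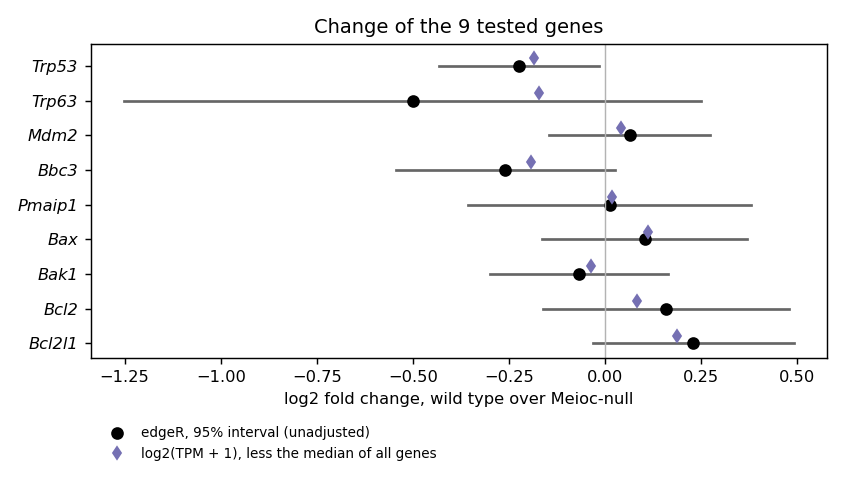
Log2 fold change, wild type over *Meioc*-null, of the 9 tested genes: black points and lines give the edgeR estimate with its unadjusted 95% interval, and purple diamonds the difference on log2(TPM + 1) less the median of all genes. The interval of *Trp53* runs from -0.43 to -0.017, those of the other 8 genes include 0, and *Trp63* has the widest.

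*Trp53* (ENSMUSG00000059552, chr11:69580359-69591873, GRCm38, + strand) encodes p53. It had 32.8, 31.5, 26.9 and 28.9 CPM in wild-type replicates 1 to 4, and 34.6, 35.6 and 35.1 CPM in null replicates 1 to 3. Every null library was above every wild-type library, and the null libraries lay close together. The means were 30.0 ± 2.65 (SD, n = 4) and 35.1 ± 0.513 (SD, n = 3) CPM. The log2 fold change was -0.23 ± 0.093 (SE), with a 95% interval of -0.43 to -0.017 and an adjusted p of 0.14 in edgeR, so that the level in null testes was 1.17 times that in wild type (interval 1.01 to 1.35). On log2(TPM + 1) the difference of *Trp53* was -0.41, with an adjusted p of 0.046 in limma, and relative to the median of all genes on that scale it was -0.19. Without wild-type replicate 1 the edgeR value was -0.27 (adjusted p = 0.082).

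Reads of *Trp53* were divided between 4 coding transcripts. Trp53-203 held 47.4% to 56.6% of the counts of *Trp53* in a library and Trp53-201 held 31.4% to 38.4%. Their coding lengths, 1173 and 1164 bases, differ little, and most of their sequence is shared, so that the division rests on few reads. Trp53-206 held 3.94% to 16.3%, with overlapping ranges in the groups. Trp53-202 received counts in wild-type replicate 1 and null replicate 1 alone, at 7.54% and 4.87%.

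*Trp63* (ENSMUSG00000022510, chr16:25683763-25892102, + strand) encodes p63, which guards oocytes and maintains epithelial stem cells. It had 3.64, 2.10, 1.28 and 2.62 CPM in wild-type libraries and 2.35, 3.62 and 4.24 CPM in null libraries. The groups overlapped. The log2 fold change was -0.50 ± 0.34 (SE; interval -1.25 to 0.25; adjusted p = 0.34, edgeR), which leaves room for a null level of 0.84 to 2.38 times that in wild type. *Trp63* reached a TPM of 1, the level the filter required in 3 libraries, in 1 wild-type and 3 null libraries.

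All counts of *Trp63* were on the 4 transcripts of the internal start. They came to 46, 30, 19 and 52 estimated counts in wild type and 44, 50 and 78 in null libraries. The 4 transcripts of the upstream start, including the TA form printed above, had 0 counts in all 7 libraries. Only reads that cover bases particular to the upstream start can place counts there with certainty. Of the 2043 coding bases of Trp63-208, 323 are its own. The floor of 3 counts, 0.151 to 0.237 CPM per library, is therefore too low as a limit on the TA forms. Trp63-205 held 82.6% to 97.7% of the counts in 6 libraries. In null replicate 1, 84.7% were assigned to Trp63-201 instead, whose coding sequence of 1761 bases is near that of Trp63-205 (1749 bases), so those reads were not firmly placed between them.

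*Trp73* (ENSMUSG00000029026, chr4:154056253-154140208, - strand) encodes p73. It had 1 to 4 counts per library, with means of 0.185 CPM in wild-type libraries and 0.132 CPM in null libraries, at or near the floor of 3 counts in both groups. No difference was detectable at this depth and no fold is given. Transcript Trp73-204, of the upstream start, held 14.3 of the estimated counts of all libraries together, and those of the internal start 3.71.

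*Mdm2* (ENSMUSG00000020184, chr10:117688875-117710758, - strand) is both the main inhibitor of p53 and its target. It had 73.5, 72.8, 68.8 and 71.3 CPM in wild-type libraries and 63.9, 79.0 and 62.8 CPM in null libraries. Null replicate 2 was the highest of all and the other null libraries the lowest. On the log2 scale, the fold change of *Mdm2* was 0.064 ± 0.094 (SE; interval -0.15 to 0.27; adjusted p = 0.67, edgeR). The ratio of *Mdm2* to *Trp53* within a library, on TPM, was 2.08 ± 0.123 (SD, n = 4) in wild type and 1.76 ± 0.220 (SD, n = 3) in null libraries. These ratios overlapped, since null replicate 2 was at 2.02 against 1.96 to 2.20 in wild type.

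**Figure D3:**
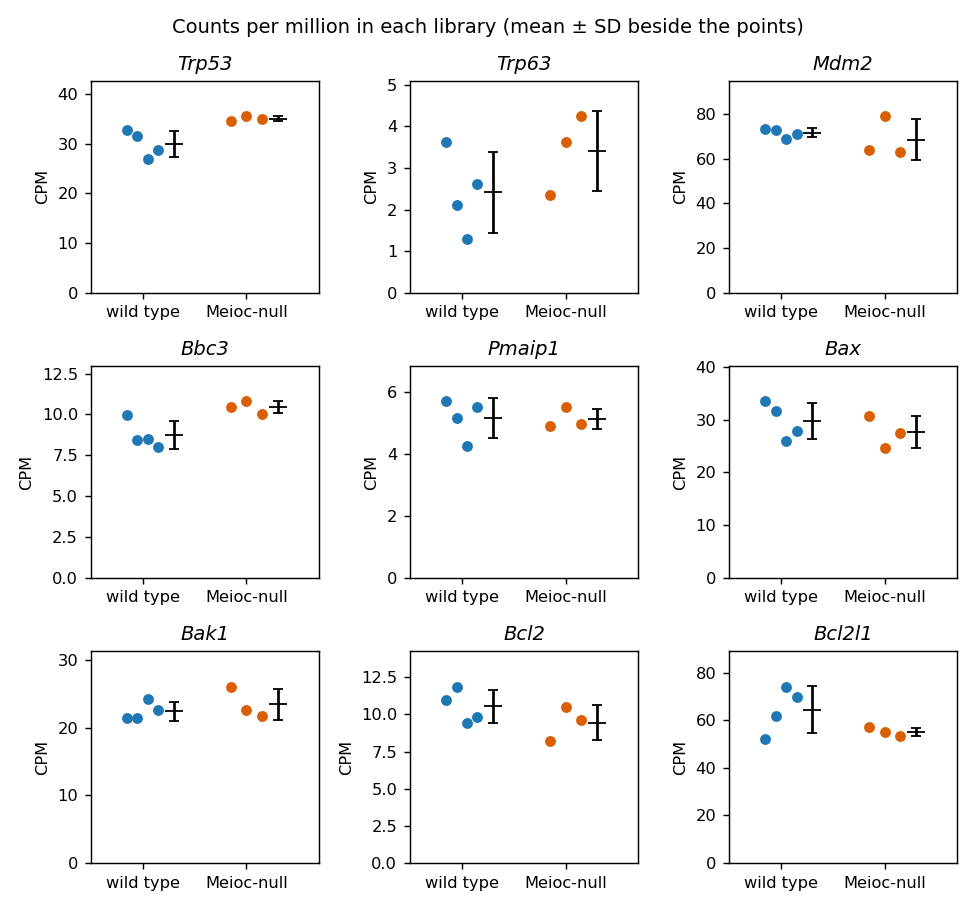
CPM of the 9 tested genes in each library (points, replicates in order from left to right; axes start at 0) with the mean ± SD beside them, for 4 wild-type (blue) and 3 *Meioc*-null (orange) pups. The groups separate for *Trp53* and *Bbc3*, higher in null libraries, and overlap for the other 7 genes.

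The BH3-only genes *Bbc3* and *Pmaip1*, which p53 induces, gave no call. *Bbc3* (ENSMUSG00000002083, chr7:16308393-16318205, + strand), which encodes PUMA, had 9.96, 8.46, 8.51 and 8.02 CPM in wild-type libraries and 10.5, 10.8 and 10.1 CPM in null libraries. Its groups did not overlap in CPM, although wild-type replicate 1 lay just below null replicate 3, and they overlapped on TPM. The log2 fold change of *Bbc3* was -0.26 ± 0.13 (SE; interval -0.55 to 0.027; adjusted p = 0.20, edgeR), and without wild-type replicate 1 it was -0.33 (adjusted p = 0.12).

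*Pmaip1* (ENSMUSG00000024521, chr18:66458533-66465565, + strand), which encodes NOXA, had 5.69, 5.17, 4.26 and 5.50 CPM in wild-type libraries and 4.91, 5.51 and 4.95 CPM in null libraries. The null values lay within the wild-type range. For *Pmaip1* the log2 fold change was 0.011 ± 0.16 (SE; interval -0.36 to 0.38; adjusted p = 0.97, edgeR). It rested on 63 to 109 counts per library, so that a level up to 1.30 times higher in wild type or 1.28 times higher in null testes lies within the interval.

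The pore-forming effectors *Bax* and *Bak1* also overlapped between groups. *Bax* (ENSMUSG00000003873, chr7:45461697-45466898, - strand) had 33.4, 31.6, 26.0 and 27.8 CPM in wild-type libraries and 30.7, 24.6 and 27.5 CPM in null libraries. The spread within each group of *Bax* was larger than the distance between the means, 29.7 ± 3.41 (SD, n = 4) and 27.6 ± 3.05 (SD, n = 3) CPM. Its log2 fold change was 0.10 ± 0.12 (SE; interval -0.16 to 0.37; adjusted p = 0.59, edgeR). Bax-201 held 93.0% to 96.8% of the *Bax* counts in every library.

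*Bak1* (ENSMUSG00000057789, chr17:27019810-27029009, - strand) had 21.4, 21.4, 24.3 and 22.6 CPM in wild-type libraries and 26.1, 22.6 and 21.8 CPM in null libraries. Only null replicate 1 was above the wild-type range. For *Bak1* the log2 fold change was -0.068 ± 0.10 (SE; interval -0.30 to 0.16; adjusted p = 0.69, edgeR).

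The protective genes *Bcl2l1* and *Bcl2* gave no call. *Bcl2l1* (ENSMUSG00000007659, chr2:152780668-152831728, - strand), which encodes BCL-XL, had 52.1, 61.9, 74.3 and 70.0 CPM in wild-type libraries and 57.0, 54.9 and 53.4 CPM in null libraries. Wild-type replicates 2 to 4 were above every null library, and wild-type replicate 1 was below them all. The log2 fold change of *Bcl2l1* was 0.23 ± 0.12 (SE; interval -0.032 to 0.49; adjusted p = 0.22, edgeR). Without wild-type replicate 1 it was 0.32, with an adjusted p of 0.045, so that 1 library decided this call. The sign of *Bcl2l1* was not kept on log2(TPM + 1), at -0.037, and relative to the median of all genes there it was 0.19.

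Transcripts Bcl2l1-201 and Bcl2l1-202 encode the same sequence of 702 coding bases, and Bcl2l1-206, the remaining transcript, held 3.81% to 9.79% of the *Bcl2l1* counts. The division between them went from 0 counts on Bcl2l1-201 in null replicate 2 to 484 in wild-type replicate 4, so only their sum is used.

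*Bcl2* (ENSMUSG00000057329, chr1:106538178-106714274, - strand), the founding member of its family, lay between 9.46 and 11.9 CPM in the 4 wild-type libraries, and the 3 null libraries had 8.22, 10.5 and 9.63 CPM. The groups overlapped. On the log2 scale, the fold change of *Bcl2* was 0.16 ± 0.14 (SE; interval -0.16 to 0.48; adjusted p = 0.48, edgeR). Bcl2-202, a transcript of 1 exon with a shorter coding sequence (600 against 711 bases), held 6.07% to 14.1% of the *Bcl2* counts in wild type and 13.6% to 19.3% in null libraries, and these ranges overlapped.

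Ratios within a library do not depend on the scaling between libraries. The ratio of *Bax* to *Bcl2*, on TPM, lay between 17.7 and 21.3 in the 4 wild-type libraries and between 14.5 and 24.5 in the 3 null libraries. The ratio of *Bax* to *Bcl2l1* was 1.71 ± 0.476 in wild type and 1.77 ± 0.182 in null libraries, with wild-type replicate 1 the highest at 2.35. The ratios overlapped between groups in both cases, and no test was made.

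The genes around p53 were read from 4 hand-written lists, with the 10 genes left out. Among all tested genes, 7.77% were higher and 3.33% lower in wild type. Upstream regulators of p53 had the most calls, with 4 of 18 tested genes higher in wild type and 0 lower, and a median log2 fold change of 0.12, while DESeq2 called 5 higher and 2 lower and limma on log2(TPM + 1) called 2 in each direction. These were the kinases of DNA damage signaling *Atr*, *Chek1* and *Atm*, and the deacetylase *Sirt1*, which was named after its value was seen. *Atr*, which responds to stalled replication, had 481, 621, 677 and 697 CPM in wild-type libraries and 377, 346 and 347 CPM in null libraries. The log2 fold changes were 0.80 ± 0.12 (SE) for *Atr* (adjusted p = 0.010, edgeR), 0.74 ± 0.17 for *Chek1* (0.026), 0.62 ± 0.14 for *Atm* (0.027) and 0.48 ± 0.097 for *Sirt1* (0.019). *Chek2*, another kinase of DNA damage signaling, named after its value was seen, had the opposite sign and was not called (log2 fold change -0.58 ± 0.19, SE; adjusted p = 0.080, edgeR), at 11.0 ± 2.97 (SD, n = 4) and 16.5 ± 2.03 (SD, n = 3) CPM in wild-type and null libraries. Wild-type replicate 1 was the lowest wild-type library for all 4 called genes, as it was for the spermatocyte marker sum. The part of cell composition in these calls was not tested.

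Of these 4, *Atr* lost its call when null replicate 3 was left out (adjusted p = 0.056). *Atm*, *Chek1* and *Sirt1* kept theirs without wild-type replicate 1 or null replicate 1 and lost it without any 1 of the other 5 libraries, with adjusted p up to 0.097, 0.081 and 0.071.

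Of 19 tested targets of p53, 1 was higher and 1 lower in wild type (median log2 fold change 0.034), while on log2(TPM + 1) limma called 1 higher and 5 lower with a median of -0.24. *Perp*, which encodes a membrane protein of desmosomes and of p53-dependent apoptosis, had 9.88, 9.51, 6.62 and 3.43 CPM in wild-type libraries and between 0.942 and 1.795 CPM in null libraries. All wild-type libraries were above all null libraries. Its log2 fold change was 2.30 ± 0.40 (SE; adjusted p = 0.013, edgeR), and without null replicate 3 the adjusted p was 0.056. *Btg2*, an antiproliferative gene, went the other way, with 19.2, 29.8, 25.2 and 22.3 CPM in wild-type libraries and 30.3, 38.9 and 58.5 CPM in null libraries (log2 fold change -0.82 ± 0.22, SE; adjusted p = 0.041, edgeR). It was called without null replicate 1 and lost its call without any 1 of the other 6 libraries (adjusted p up to 0.13). *Cdkn1a*, which encodes the cell cycle inhibitor p21 and is the best known p53 target, had 2.69, 2.45, 3.24 and 3.89 CPM in wild-type libraries and 2.30, 1.81 and 2.45 CPM in null libraries. Its log2 fold change was 0.49 ± 0.23 (SE; interval -0.032 to 1.01; adjusted p = 0.19, edgeR). Of the 20 targets, 15 had a promoter window and 6 of these (40%) held the p53 half-site, against 9.55% of all genes. The share was 10.5%, 9.09% and 11.8% in the upstream, other BCL2 and apoptosome lists. Since the target list was written from known targets of p53, a high share can follow from that choice and is no result of these libraries.

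Of 10 tested other BCL2 family genes, 1 was called. *Bmf*, a BH3-only gene, was lower in wild type, at 19.3 to 22.1 CPM against 30.1, 37.8 and 28.9 CPM in null libraries (log2 fold change -0.60 ± 0.12, SE; adjusted p = 0.018, edgeR), and lost its call without wild-type replicate 2 or 3 or null replicate 2 or 3 (adjusted p up to 0.058). The median of the list was -0.047, with 2 genes above and 8 below 0. *Bik*, a tested gene of this list named after its value was seen, had the opposite sign to *Bmf* and was not called. Its log2 fold change was 0.85 ± 0.25 (SE; adjusted p = 0.056, edgeR), the highest of the list. *Bik* had 8.22 to 13.8 CPM in wild-type libraries and 4.68 to 7.96 CPM in null libraries. Its groups did not overlap in CPM, although they overlapped on TPM. *Hrk*, another BH3-only gene, was below the TPM filter and is named after its value was seen. It had 1.66, 1.75, 1.76 and 1.56 CPM in wild-type libraries and 4.27, 4.49 and 5.66 CPM in null libraries, from 21 to 104 counts. In the fit without the filter, the log2 fold change of *Hrk* was -1.52 ± 0.21 (SE; adjusted p = 0.0034, edgeR). *Bcl2l10* and *Bcl2l14* had at most 4 counts in a library.

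Of 19 apoptosome, caspase and inhibitor genes, all tested, 2 were higher in wild type and 0 lower with a median of -0.057, while limma on log2(TPM + 1) called 0 higher and 5 lower with a median of -0.30, and DESeq2 and scaling by library size only each called 2 in each direction. At an unadjusted p below 0.05 in edgeR there were 10 of 19, with 5 in each direction, against 30.3% of all genes. The 2 called genes were *Dffa*, which encodes the inhibitor of the caspase-activated DNase (log2 fold change 0.42 ± 0.096, SE; adjusted p = 0.026, edgeR), and *Diablo*, which encodes a mitochondrial antagonist of caspase inhibitors (0.37 ± 0.074; 0.018). *Diablo* had 150.2, 163, 160 and 156 CPM in wild-type libraries and 125, 114 and 126 CPM in null libraries, so that the groups did not overlap. Both kept their call without wild-type replicate 1 or null replicate 1 and lost it without any 1 of the other 5 libraries, with adjusted p up to 0.087 for *Dffa* and 0.064 for *Diablo*. On log2(TPM + 1), limma called 5 of the 9 list genes called by edgeR, and not *Atm*, *Sirt1*, *Dffa* or *Diablo*.

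**Figure D4:**
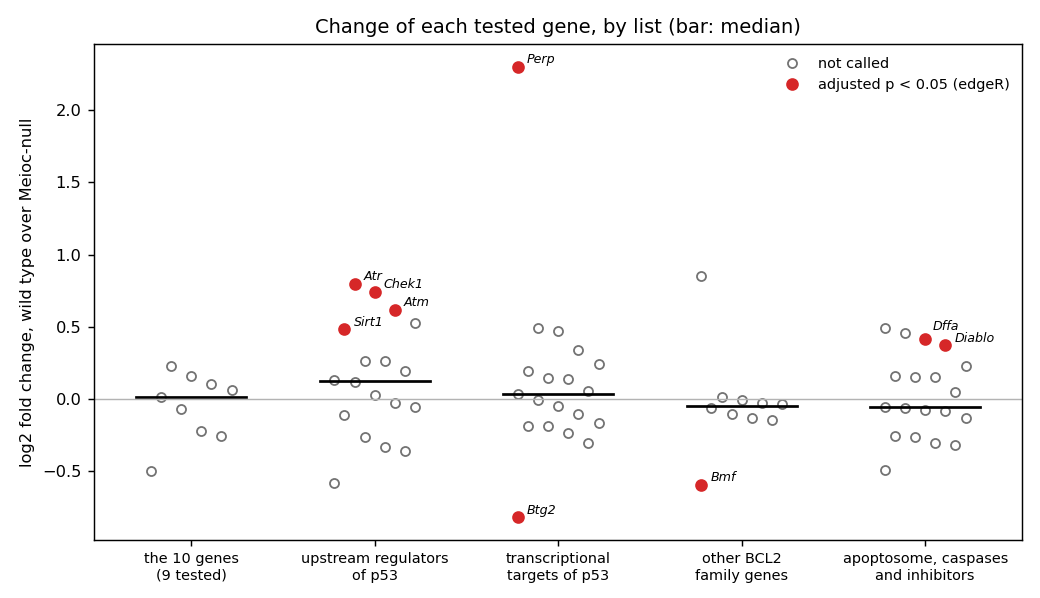
Log2 fold change, wild type over *Meioc*-null, of each tested gene among the 10 genes and in the 4 lists around them; filled red points passed an adjusted p of 0.05 in edgeR, open points did not, and bars give the medians. None of the 9 tested genes is called, while 4, 2, 1 and 2 genes are called in the upstream regulator, p53 target, other BCL2 and apoptosome lists.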

How the data were processed

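RNA-seq was analysed for 4 wild-type and 3 *Meioc*-null pups, grouped by genotype label. Per the labels and the methods, the authors trimmed reads with cutadapt 1.8 and ran kallisto 0.44.0 on GENCODE Basic vM15. The deposited files hold estimated counts per transcript, without normalization, and the authors' TPM, which keeps no depth. Of 43139 transcripts, 119 (0.247% to 0.282% of counts) matched no gene of GENCODE vM21 and are not used. Gene sums of the counts were rounded and tested by edgeR 4.0.16 (TMM, quasi-likelihood, Benjamini-Hochberg over all tested genes) in R 4.3.3. A gene was tested if its TPM reached 1 in 3 or more of the 7 libraries. CPM are TMM-normalized. Intervals are 95% and unadjusted. DESeq2 1.42.0, limma 3.58.1 on log2(TPM + 1) and log2(TPM + 0.1), other scalings and filters, each library left out and a replicate block were alternatives.

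The 10 genes and the lists were chosen with earlier results of these data known. All 10 genes, up to 3 called genes per list and direction, and *Cdkn1a* are named. Steps were tested on simulated data. Separate pups are the replicates. Floors cover counting error only. One gene of the lists is not reported here.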

Additional observations from a re-analysis of the deposited data

How the results depend on the processing

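Of the 9 tested genes, *Trp53*, *Trp63* and *Bbc3* kept their direction in all 15 alternatives, and 0 were called under DESeq2, the other count scalings, the other filters or the replicate block. On log2(TPM + 1) and log2(TPM + 0.1), limma gave *Trp53* -0.41 and -0.43 (called, adjusted p = 0.046 on both). There *Mdm2* turned to -0.18 and -0.19, *Bax* to -0.11 and -0.12, *Bcl2* to -0.14 and -0.19, *Bcl2l1* to -0.037 and -0.039, and *Pmaip1* to -0.21 and -0.25, on scales where the median of all genes was -0.23 and -0.25. With library size only, *Mdm2* turned to -0.013 and *Pmaip1* to -0.065. With 1 library left out, *Trp63* ranged from -0.74 to -0.29, *Mdm2* from 0.0046 to 0.18, *Bax* from 0.028 to 0.19, *Bcl2* from 0.066 to 0.24, *Bak1* ranged from -0.12 to 0.016, *Bcl2l1* from 0.16 to 0.32 and *Pmaip1* from -0.040 to 0.092. None of the values that turned sign was called.

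All genes called numbered 2331 under DESeq2, 2522 and 2506 on the TPM scales and 131 to 2172 with 1 library left out. The upstream list had 7 calls under DESeq2 (5 higher in wild type, 2 lower), 4 on both TPM scales (2 in each direction) and 0 to 7 with 1 library left out. The target list had 6 on both TPM scales (1 higher, 5 lower) and 0 to 2 with 1 library left out. The other BCL2 list had 2 under DESeq2 (1 higher in wild type, 1 lower) and 0 to 2 with 1 library left out. It had 2 without the TPM filter, with a mean CPM of at least 1 and on log2(TPM + 1), all lower. On log2(TPM + 0.1) it had 3, all lower. The apoptosome list had 4 under DESeq2 and with library size only, with 2 in each direction, 5 on both TPM scales, all lower, and 0 to 4. Leaving out a library also lowers the number of samples.

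The labels give replicate numbers without saying that they pair the pups. Deviations of same-numbered libraries from their group means had r = -0.057, -0.10 and -0.23. With so few libraries, which also differed within a group, these values cannot decide whether the numbers pair pups. The libraries were treated as unpaired. With the replicate block, 109 genes were called, with 0, 1, 0 and 0 in the upstream, target, other BCL2 and apoptosome lists, and *Pmaip1* was -0.031. Of the 9 list genes called by edgeR, 1 (*Perp*) was called with the block, 5 on log2(TPM + 1) and 9 under DESeq2.

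Depth limits *Trp63*, *Trp73*, *Pmaip1* and the transcript shares most.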
